A study of Macaca mulatta with 24 samples.

Results

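Cohort 5 of the rhesus macaque (Macaca mulatta) ethanol self-administration study held 4 heavy drinkers and 3 alcohol-free controls, and the comparison described here is between these 7 animals, chosen by the cohort and drinking group in the sample labels, out of 24 animals sequenced. All were adult males, unrelated to one another, and the tissue was a small dissection of the nucleus accumbens (NAcc) core. The drinkers had been induced to drink by schedule-induced polydipsia and then had a choice of ethanol or water for 22 h a day over 12 months, with no abstinence imposed before necropsy. The controls lived in the same room and went through the same schedule with water at both spouts, and drank a maltose dextrin solution that matched the calories. HD* joins the heavy (HD) and very heavy (VHD) drinking categories. Daily ethanol intake in g/kg was 3.78 for VHD 1, 2.74 for HD 2, 3.09 for HD 3 and 3.28 for VHD 4, and 0 for controls 1, 2 and 3, where the digit after a group only names the animal. Each animal gave 1 library. HD* animals and controls occurred together in 1 other cohort, 7a, with 4 HD* animals and 2 controls, which served for comparison.

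The NAcc core is part of the ventral striatum and takes part in reward, motivation and habit. Most of its neurons are GABAergic projection neurons that respond to dopamine through D1 or D2 receptors, and they receive glutamate from cortex, thalamus, hippocampus and amygdala. A small block of this tissue also holds interneurons, astrocytes, oligodendrocytes, microglia and vessels, so a level of RNA in it reflects both how many cells of a kind were taken and how much RNA each of them made. Fewer cells of a type and less RNA per cell cannot be told apart in such samples.

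Levels are given as TPM, the authors' length-corrected transcript values, scaled to the same total in each animal. Differences are between group means of log2(TPM + 1), HD* minus control, from limma, a linear model that shares the spread among genes, so that 1 stands for a doubling in well expressed genes and understates the change of weak ones. P-values are limma's, and adjusted p-values follow Benjamini-Hochberg over the 9197 genes that averaged 10 TPM or more across the 24 animals.

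Markers of striatal projection neurons were abundant in all 7 animals, as the labelled tissue calls for, but control 2 stood apart from controls 1 and 3. PPP1R1B (DARPP-32, the dopamine-regulated phosphatase inhibitor of projection neurons) stood at 3749, 1578 and 3926 TPM in controls 1, 2 and 3, and at 1977, 3659, 3152 and 1051 TPM in VHD 1, HD 2, HD 3 and VHD 4. SLC17A7 (VGLUT1, the vesicular glutamate transporter of cortical and other excitatory neurons) was at 1.19, 348 and 2.68 TPM in the controls and at 10.6, 4.69, 84.9 and 1.14 TPM in the HD* animals. GFAP, the astrocyte filament, was at 829, 3369 and 687 TPM in the controls and at 2277, 1109, 1384 and 4037 TPM in the HD* animals. Control 2 thus had the second lowest PPP1R1B, the highest SLC17A7 and the second highest GFAP of the 7 animals. VHD 4 went further, with the lowest PPP1R1B and the highest GFAP. Over the whole list of 13 markers of cortical and other excitatory neurons, none of them at 0 in all 7 animals, the summed level was 24.8 to 623 TPM in controls and 31.1 to 151 TPM in HD* animals, with control 2 at the top. Results that rest on control 2 are given with and without it, and several list medians also without both control 2 and VHD 4.

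**Figure D1:**
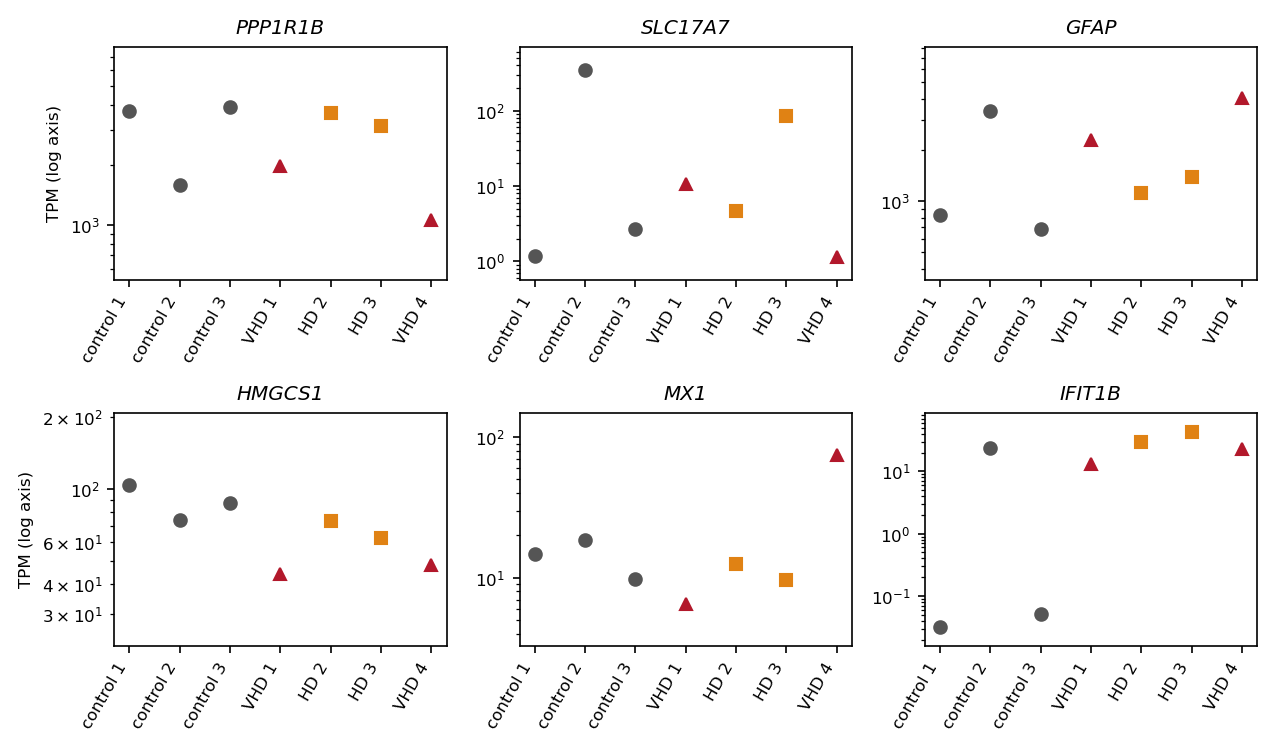
TPM (log axis) of 6 genes in each of the 7 animals of cohort 5, with grey circles for controls, orange squares for HD and red triangles for VHD animals. Control 2 lies with VHD 1 and VHD 4 for PPP1R1B and GFAP, has the highest SLC17A7 at 348 TPM, and is the only control in which IFIT1B is above 1 TPM, while MX1 stands out in VHD 4 at 74.1 TPM.

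The largest axis of variation in cohort 5 did not follow drinking. In a principal component analysis of the 7 animals, 55.6% of the variance fell on the first component and 16.9% on the next. Scores on the first component were 21.3, −20.6 and 20.9 in controls 1, 2 and 3, and −11.8, 14.6, 10.6 and −34.9 in VHD 1, HD 2, HD 3 and VHD 4. Both VHD animals and control 2 therefore lay on one side, and both HD animals with controls 1 and 3 on the other. The HD* mean was below the control mean by an amount that gave p = 0.514 in a two-sided exact permutation test over 35 assignments, for which the smallest possible p is 0.0286. All 24 tested markers of striatal projection neurons pointed the same way on this component, and 23 of them were among the tenth of genes with the highest weights. Correlations of log2(TPM + 1) between animals ran from 0.918 to 0.990. The animal closest to VHD 1 and to VHD 4 was control 2, with r = 0.977 and r = 0.967, whereas HD 2 was closest to control 3, with r = 0.989. These correlations are across genes, which are not independent replicates.

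At an adjusted p of 0.05, 0 of 9197 genes (0%) differed between cohort 5 HD* animals and controls, and the smallest adjusted p was 0.998. At an unadjusted p of 0.05, 146 genes (1.59%) were counted, 47 of them higher (0.511%) and 99 lower (1.08%) in HD* animals. This split depended on the scaling, since TMM rescaling (trimmed mean of M-values) gave 119 higher and 48 lower. In 101 genes (1.1%) all 4 HD* animals lay above all 3 controls, and in 187 (2.03%) all lay below, or 288 (3.13%) in either direction. Under random assignment each direction has a probability of 0.0286 per gene (1 of 35 assignments), so neither share exceeds chance. The split of the genes without overlap also turned with the settings. It went to 235 above and 101 below with TMM rescaling and to 43 and 14 among genes averaging 100 TPM or more. Over all tested genes 3451 (37.5%) had a fitted difference above 0 and 5746 (62.5%) one below 0, with a median of −0.05, against 4689 above and 4508 below with TMM rescaling. Genes and groups below are therefore described by their values, and none is called changed. Without control 2, 581 genes reached an unadjusted p of 0.05, 174 higher and 407 lower, and 1 gene, IFIT1B, an adjusted p of 0.05.

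Per direction, the 10 genes of smallest p are described first. They were picked by these p-values, so their separation in cohort 5 is a description. The adjusted p of each of them, and of each other gene in the fit of the 7 animals, was at least 0.998, and differences are therefore given with their standard error (SE) alone.

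The 10 genes higher in HD* animals are given first. AGT, the angiotensin precursor, made in brain mainly by astrocytes, was at 311, 298 and 302 TPM in controls 1, 2 and 3. In VHD 1, HD 2, HD 3 and VHD 4 it was at 466, 429, 623 and 522 TPM, a log2 difference of 0.73 (SE 0.15). The 3 controls lay close together and all HD* animals were above them, but the 5 controls of the other cohorts ranged from 394 to 1024 TPM. SDC4, the heparan sulfate proteoglycan syndecan 4, was at 27.9, 27.4 and 31.5 TPM in controls and at 38.2, 40.1, 53.6 and 44.5 TPM in HD* animals, with a log2 difference of 0.58 (SE 0.14). SLIT1, a secreted axon guidance ligand of ROBO receptors, was at 28.0, 41.3 and 21.8 TPM in controls and at 61.0, 39.7, 49.8 and 63.0 TPM in HD* animals, so that control 2 overlapped with HD 2. Its log2 difference was 0.82, and 1.06 without control 2.

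HTR1D, the serotonin 1D receptor, was at 7.97, 3.78 and 9.89 TPM in controls and at 19.1, 15.3, 13.8 and 18.6 TPM in HD* animals. This was the largest difference among the 20 leading genes, 1.18 (SE 0.28), at a low level of expression. SLC22A6, an organic anion transporter, was at 6.80, 16.5 and 8.81 TPM in controls and at 18.5, 14.8, 26.9 and 34.2 TPM in HD* animals, again with control 2 above HD 2, and its log2 difference was 1.09 (SE 0.34). SMOX, which oxidises spermine to spermidine, was at 48.2, 48.5 and 41.2 TPM in controls and at 57.9, 64.4, 86.3 and 75.6 TPM in HD* animals. Its log2 difference was 0.60 (SE 0.16), and the groups did not overlap.

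CDR1, a gene known as an antigen in paraneoplastic cerebellar degeneration, was at 14.2, 12.3 and 14.0 TPM in controls and at 26.1, 33.5, 20.4 and 31.6 TPM in HD* animals, a log2 difference of 0.97 (SE 0.18). Whether the libraries kept strand is described differently in the study's sources, and reads of CDR1 and of its antisense partner may not have been told apart. CIB1, a calcium and integrin binding protein, was at 98.3, 120 and 89.6 TPM in controls and at 144, 129, 154 and 132 TPM in HD* animals. HYI, a putative hydroxypyruvate isomerase, was at 58.5, 59.1 and 56.1 TPM in controls and at 74.4, 80.3, 83.1 and 66.4 TPM in HD* animals. C1orf50 was at 53.9, 72.1 and 54.0 TPM in controls and at 80.2, 84.7, 85.8 and 79.7 TPM in HD* animals. All 3 were separated between the groups, with log2 differences of 0.45 for CIB1, 0.38 for HYI and 0.47 for C1orf50.

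Among the 10 genes lower in HD* animals, CFLAR had the smallest p of all genes tested. CFLAR encodes c-FLIP, which holds back caspase 8 at death receptors, and was at 17.6, 20.9 and 15.7 TPM in controls and at 7.82, 8.31, 8.63 and 11.0 TPM in VHD 1, HD 2, HD 3 and VHD 4. Its log2 difference was −0.94 (SE 0.18), and all 4 HD* animals lay below the controls. The 5 controls of the other cohorts lay at 8.93 to 18.7 TPM, a range that reached into that of the HD* animals. KLK8, the extracellular protease neuropsin, was at 13.0, 20.8 and 19.2 TPM in controls and at 7.03, 9.36, 8.19 and 9.39 TPM in HD* animals, a log2 difference of −0.96 (SE 0.20). For KLK8 the 5 controls of the other cohorts lay at 2.00 to 12.6 TPM, below the cohort 5 controls and across the HD* range. In cohort 7a its difference had the other sign, 0.89 (SE 0.39). KLK8 belongs to a family of similar kallikrein genes, so how its reads were assigned is uncertain.

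RIMBP2, a presynaptic active zone protein that links RIM to calcium channels, was at 38.6, 40.5 and 39.0 TPM in controls and at 29.1, 29.8, 30.2 and 24.9 TPM in HD* animals, with a log2 difference of −0.45 (SE 0.12). Levels within each group were close together and well apart between groups. The 5 controls of the other cohorts lay at 19.6 to 33.9 TPM, below the cohort 5 controls and across the range of the HD* animals. AFF3, a nuclear protein of the AF4/FMR2 family, was at 18.1, 21.4 and 15.6 TPM in controls and at 7.38, 13.7, 11.1 and 8.30 TPM in HD* animals, lowest in both VHD animals. ZZEF1 was at 32.6, 20.3 and 29.0 TPM in controls and at 15.7, 15.3, 18.7 and 17.2 TPM in HD* animals. Its log2 difference was −0.65, and control 2 lay nearest to the HD* animals.

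Both BHMT and MTPAP work in metabolism or mitochondria. BHMT, which remethylates homocysteine to methionine with betaine, was at 48.1, 31.1 and 84.4 TPM in controls and at 28.3, 26.9, 23.0 and 25.7 TPM in HD* animals. The controls spread widely, with 31.1 TPM in control 2 close to the 28.3 TPM of VHD 1, and the log2 difference of −0.93 (SE 0.28) ranged from −1.27 to −0.56 as animals were left out in turn, with −1.27 reached without control 2 and −0.56 without control 3. MTPAP, the mitochondrial poly(A) polymerase, was at 32.8, 32.8 and 32.9 TPM in controls and at 28.0, 24.6, 23.7 and 24.8 TPM in HD* animals, a log2 difference of −0.37 (SE 0.11). TAGLN, the actin-binding transgelin of smooth muscle, was at 45.7, 40.4 and 48.2 TPM in controls and at 35.9, 35.9, 28.8 and 26.6 TPM in HD* animals. UBXN2B, a cofactor of the ATPase p97, and RCBTB2 had log2 differences of −0.49 and −0.56, and neither overlapped between the groups.

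In 18 of the 20 leading genes the groups did not overlap, the exceptions being SLIT1 and SLC22A6. In 0 of the 20 did all HD* animals lie beyond all 8 controls of the series. For KLK8, RIMBP2, ZZEF1, AFF3, RCBTB2, UBXN2B and MTPAP, the 5 controls of the other cohorts all lay below the 3 cohort 5 controls. The direction of the 20 genes did not change when any 1 animal was left out. In each such fit 18 of 20 kept an unadjusted p under 0.05, CIB1 and SLC22A6 being the exceptions. All 20 kept it under TMM rescaling, and 10 of 20 when the spread was taken from all 24 animals. Where the groups do not overlap, leaving out 1 animal cannot change the direction. The 20 genes were also picked for small p in these same animals, so these counts lend them no support.

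**Figure D2:**
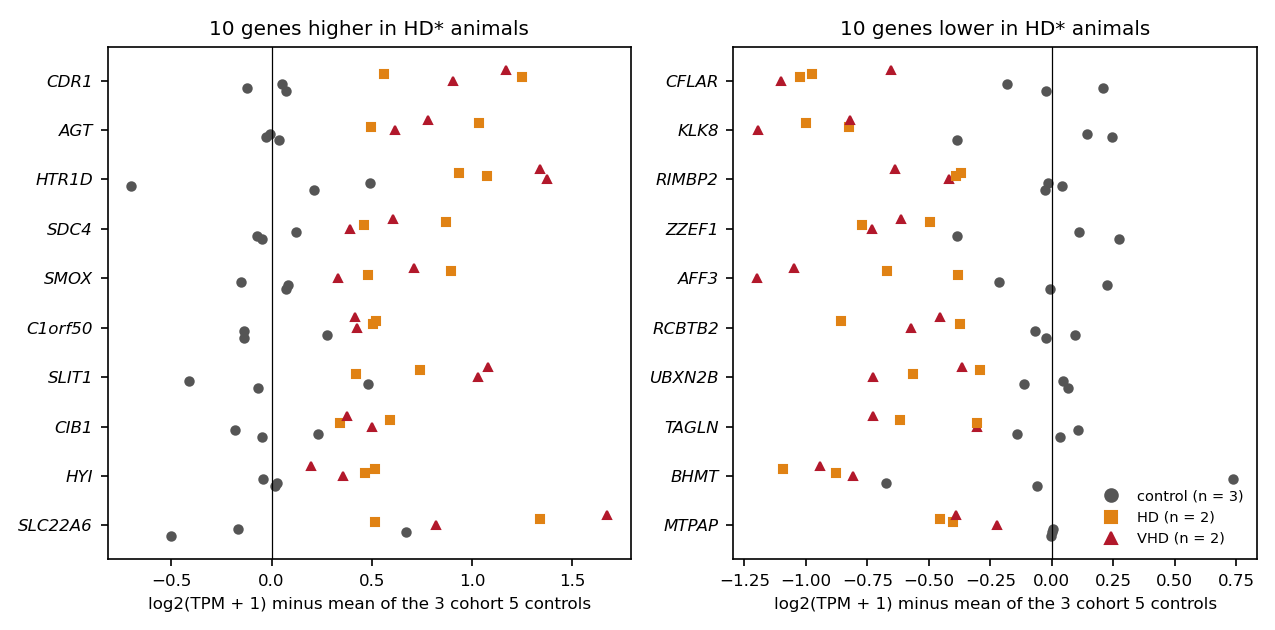
Log2(TPM + 1) of each cohort 5 animal minus the mean of the 3 controls, for the 10 genes with the smallest p that were higher (left) and lower (right) in HD* animals, with grey circles for controls, orange squares for HD and red triangles for VHD. Controls and HD* animals are separated in 18 of the 20 genes, with HTR1D (1.18) and KLK8 (−0.96) the largest differences in each direction.

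Cohort 7a gave the same contrast in other animals with their own controls. There too 0 of 9197 genes (0%) passed an adjusted p of 0.05, and 98 (1.07%) an unadjusted one, 20 higher (0.217%) and 78 lower (0.848%). Here TMM rescaling gave 91 higher and 48 lower. The groups of cohort 7a did not overlap in 740 genes (8.05%), with HD* animals higher in 175 (1.9%) and lower in 565 (6.14%). With 2 controls rather than 3, separation is easier by construction, so this count is not set against that of cohort 5. The fitted difference was above 0 in 32.6% and below 0 in 67.4% of genes. Over all tested genes the sign was the same in both cohorts in 5143 genes (55.9%), and among the 20 leading genes in 7, namely HTR1D and HYI of the higher 10 and CFLAR, RIMBP2, AFF3, RCBTB2 and UBXN2B of the lower 10. The median difference of the 10 higher genes was 0.67 in cohort 5 and −0.48 in cohort 7a, and that of the 10 lower genes −0.61 and −0.02, beside medians of −0.05 and −0.10 over all genes. HYI was higher in cohort 7a HD* animals as well, at 69.1 to 94.7 TPM against 57.5 to 60.4 TPM in controls (log2 difference 0.53, SE 0.22). SMOX was lower there, at 48.9 to 69.2 TPM against 75.8 to 122 TPM (log2 difference −0.68, SE 0.27). CFLAR was at 5.04 to 11.8 TPM in cohort 7a HD* animals and at 9.94 to 12.2 TPM in the controls, so those groups overlapped. The test of the difference between the cohort effects, an interaction term over 13 animals, passed an adjusted p of 0.05 in 0 genes (0%) with a smallest adjusted p of 1.00, and an unadjusted p of 0.05 in 168 (1.83%). Of these, 141 (1.53%) lay above 0, meaning a more positive HD* minus control difference in cohort 5 than in cohort 7a, and 27 (0.294%) below. With TMM rescaling the counts were 84 and 77.

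**Figure D3:**
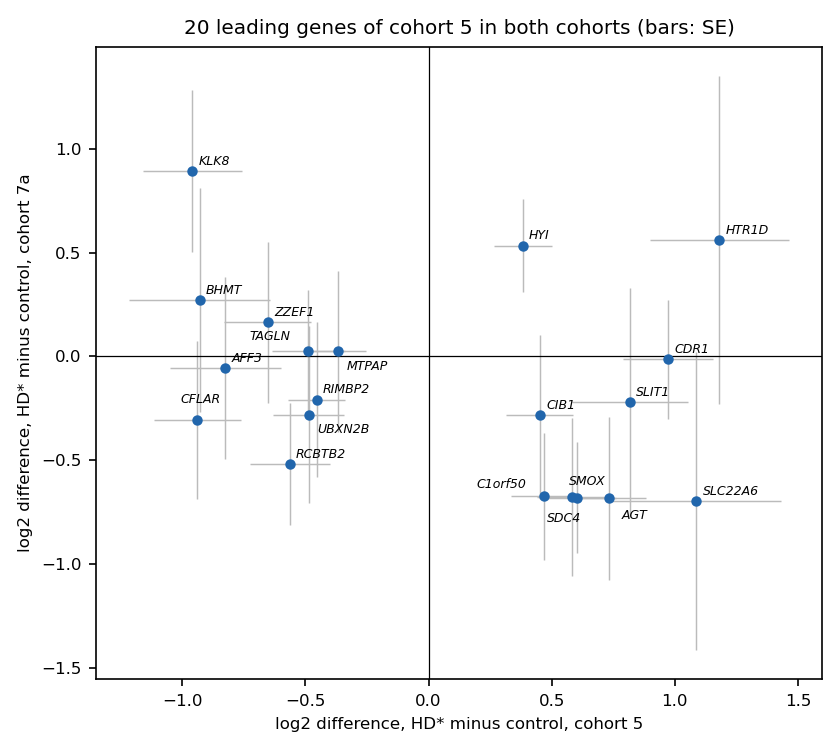
Log2 differences (HD* minus control) of the 20 leading genes of cohort 5, on the horizontal axis, against the same contrast in cohort 7a, on the vertical axis, with bars for the standard errors. Of the 20 genes 7 lie in the quadrants with equal signs, and AGT, SDC4, SMOX and C1orf50 lie near −0.68 in cohort 7a.

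Markers of striatal projection neurons were lower on average in HD* animals, but not apart from the spread between animals. All 24 of the 24 tested markers had a fitted difference below 0, 0 of them at an unadjusted p of 0.05, with a median of −0.34. The mean centred level of the list, a score on the log2 scale with 0 as the mean of the 7 animals, was 0.59, −0.61 and 0.65 in controls 1, 2 and 3. In VHD 1, HD 2, HD 3 and VHD 4 it was −0.31, 0.51, 0.30 and −1.13. The HD animals were thus near controls 1 and 3, and control 2 lay between the VHD animals. Without control 2, 2 of the 24 markers were lower at an unadjusted p of 0.05, beside 407 of 9197 over all genes. The median was then −0.74, but it was −0.42 when VHD 4 was left out as well. In cohort 7a it was 0.40, with 22 of 24 markers above 0. PENK, the enkephalin precursor of the indirect pathway, was at 3480, 2225 and 4718 TPM in controls and at 2219, 3610, 3630 and 1151 TPM in HD* animals. DRD1 was at 274, 108 and 231 TPM in controls and at 125, 231, 207 and 91.2 TPM in HD* animals. DRD2 was at 360, 140 and 377 TPM in controls and at 216, 358, 371 and 80.6 TPM in HD* animals, and its log2 difference of −0.28 became 0.20 without VHD 4. Each of these genes placed control 2, VHD 1 and VHD 4 below the other 4 animals.

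The tested interneuron markers showed the opposite sign, with 6 of 8 above 0 and a median of 0.17, but the groups overlapped. The list score was −0.21, 0.21 and −0.33 in controls 1, 2 and 3. In VHD 1, HD 2, HD 3 and VHD 4 it was −0.04, −0.31, 0.12 and 0.55. The cohort 7a median was −0.17, with 3 of 8 above 0. SST, the somatostatin gene, was at 632, 620 and 659 TPM in controls and at 743, 733, 823 and 692 TPM in HD* animals. All 4 HD* animals lay above the controls in SST, by 0.23 on the log2 scale (SE 0.12). This was 1 of the 8 markers, beside 1.1% of all tested genes, and is not a result about the list. TAC3, a tachykinin gene of primate striatal interneurons, was at 107 and 172 TPM in VHD 1 and VHD 4, at 43.6 and 60.02 TPM in HD 2 and HD 3, and at 39.4 to 51.8 TPM in controls.

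The scores of the astrocyte, microglia and oligodendrocyte lists were highest in VHD 4. Of 21 astrocyte markers 18 were above 0, with a median of 0.19. AGT, GJB6 (connexin 30) and GLUL (glutamine synthetase) were higher at an unadjusted p of 0.05, 3 of 21 beside 0.511% of all tested genes. In cohort 7a the differences of AGT, GJB6 and GLUL were −0.68, −0.54 and −0.44. GLUL was at 853, 1090 and 734 TPM in controls and at 1306, 939, 1201 and 1694 TPM in HD* animals, a log2 difference of 0.51 (SE 0.22). GJB6 was at 78.0, 68.8 and 49.1 TPM in controls and at 85.4, 86.2, 73.2 and 103 TPM in HD* animals. The groups overlapped in both genes. The astrocyte score was −0.13, 0.11 and −0.32 in controls and 0.07, −0.06, −0.14 and 0.48 in HD* animals, and the summed level of the list was 10433 to 16258 TPM in controls and 12108 to 20100 TPM in HD* animals.

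Of 18 microglia and complement genes 16 were above 0, with a median of 0.27 and 0 at an unadjusted p of 0.05. C1QB, a chain of complement C1q, was at 74.4, 130 and 79.7 TPM in controls and at 114, 108, 112 and 175 TPM in HD* animals. Control 2 lay above 3 of the HD* animals, and without it the median was 0.38 (0.28 for astrocyte markers). In that fit 4 of the 18 genes were higher at an unadjusted p of 0.05, beside 174 of 9197 over all genes. With VHD 4 left out as well the medians were 0.20 for microglia and 0.15 for astrocyte genes. Of 27 oligodendrocyte and myelin markers 20 were above 0, with a median of 0.12. MBP, the myelin basic protein gene, was at 288, 485 and 358 TPM in controls and at 429, 376, 485 and 751 TPM in HD* animals. Without control 2 and VHD 4 the oligodendrocyte median was −0.09. In cohort 7a the medians were −0.40 for astrocyte and −0.32 for both microglia and oligodendrocyte genes, so the sign of all 3 was the other way there. Oligodendrocyte precursor markers had 2 of 6 above 0 and 4 below, with a median of −0.12. Endothelial and mural cell markers had 3 of 12 above 0, with TAGLN lower at an unadjusted p of 0.05, 1 of 12 beside 1.08% of all tested genes. The groups did not overlap in TAGLN, lower in HD* animals, nor in PDGFRB, higher in HD* animals. Over all tested genes those shares were 2.03% lower and 1.1% higher. The share that the mix of cells had in any difference between the groups was not tested.

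**Figure D4:**
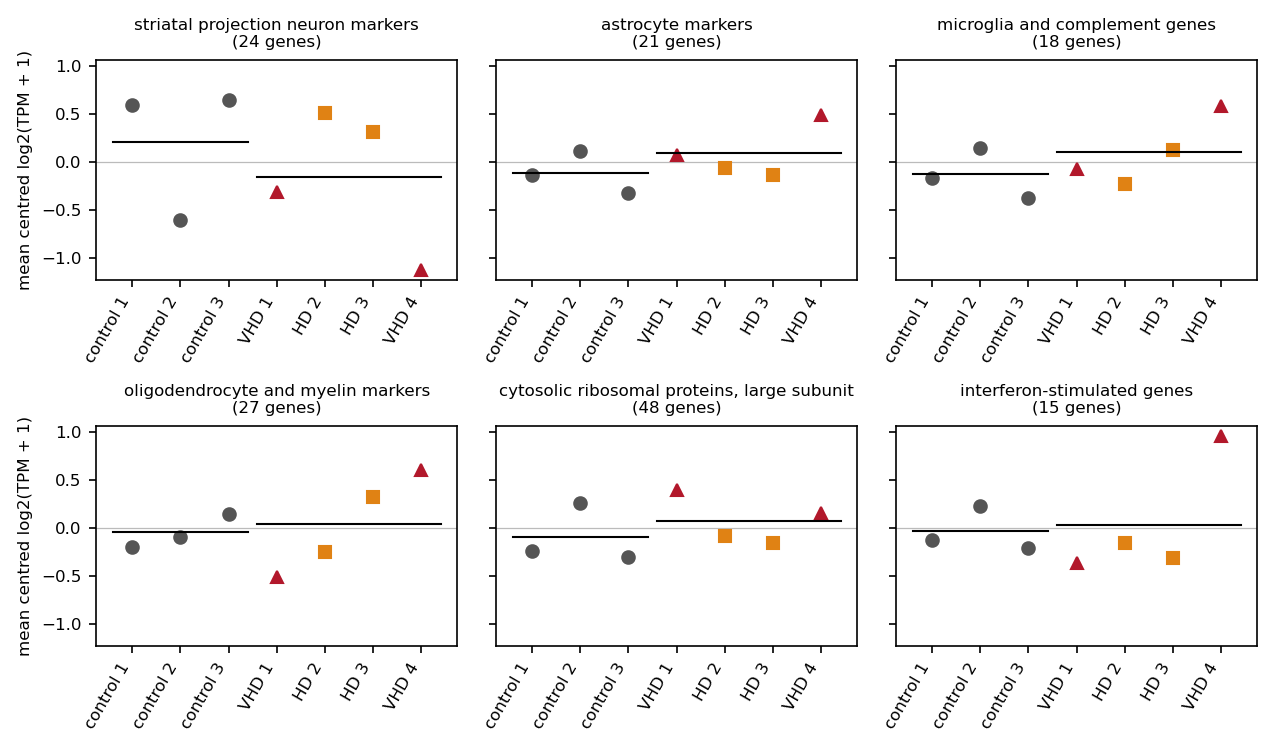
Mean centred log2(TPM + 1) of 6 gene lists in each of the 7 animals of cohort 5, where 0 is the mean of the 7 and black lines are the group means, with grey circles for controls, orange squares for HD and red triangles for VHD. The projection neuron score is lowest in VHD 4 (−1.13), control 2 (−0.61) and VHD 1 (−0.31), and VHD 4 has the highest astrocyte, microglia, oligodendrocyte and interferon scores.

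Cytosolic ribosomal protein genes were above 0 almost throughout, by small amounts. Of the tested large subunit genes 47 of 48 and of the small subunit genes 32 of 33 had a fitted difference above 0, with medians of 0.18 and 0.19 and 0 genes at an unadjusted p of 0.05. RPL31 was at 887, 1306 and 884 TPM in controls and at 1491, 1222, 1069 and 1270 TPM in HD* animals. RPSA was at 1273, 1728 and 1166 TPM in controls and at 2429, 1539, 1482 and 1881 TPM in HD* animals. Control 2 lay among the HD* animals in both genes, and the large subunit score was 0.39 and 0.15 in VHD 1 and VHD 4 and −0.09 and −0.16 in HD 2 and HD 3, against −0.24, 0.25 and −0.30 in controls 1, 2 and 3. Without control 2, 3 large and 4 small subunit genes were higher at an unadjusted p of 0.05, beside 174 of 9197 over all genes. The medians were then 0.37 and 0.40, and 0.33 and 0.37 with VHD 4 left out as well. In cohort 7a they were 0.09 and 0.02. Respiratory complex I subunits had 32 of 36 above 0, with a median of 0.12 in cohort 5 and 0.11 in cohort 7a. Translation initiation and elongation factors had 23 of 49 above 0 and a median of −0.01, or 0.04 with TMM rescaling. Of the genes of mTOR and AKT signalling 7 of 27 were above 0, with a median of −0.09, and −0.15 without control 2. DDIT4, which inhibits mTORC1 and is induced by stress and glucocorticoids, was at 25.9, 26.8 and 30.6 TPM in controls and at 31.7, 31.3, 39.8 and 44.1 TPM in HD* animals, a log2 difference of 0.38 (SE 0.15).

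Fitted differences of the synaptic lists are read beside the 62.5% of all tested genes that lay below 0. Of the synaptic scaffold and adhesion genes 26 of 29, of the synaptic vesicle and exocytosis genes 28 of 38, of the GABA and glycine receptor subunits 13 of 17, of the glutamate receptor subunits 9 of 15 and of the potassium channels 21 of 29 had a fitted difference below 0. The glutamate receptor subunits thus did not exceed the share over all genes, and with TMM rescaling 7 of them lay above 0 and 8 below. The medians of the 5 lists were −0.20, −0.17, −0.21, −0.11 and −0.25, in the same order. Without control 2 they were −0.28, −0.27, −0.27, −0.19 and −0.28, with 2, 3, 1, 2 and 5 genes lower and, among the scaffold genes, 1 higher at an unadjusted p of 0.05. Over all 9197 genes 407 were lower and 174 higher in that fit. With VHD 4 left out as well the medians were −0.25, −0.17, −0.24, −0.14 and −0.27. In cohort 7a the 5 medians lay between −0.10 and −0.001. With all 7 animals of cohort 5, 1 gene of these lists reached an unadjusted p of 0.05, HOMER3, a postsynaptic scaffold that binds group I metabotropic glutamate receptors, and it was higher. HOMER3 was at 15.8, 19.6 and 16.6 TPM in controls and at 24.1, 20.05, 20.2 and 24.96 TPM in HD* animals, a log2 difference of 0.35 (SE 0.14).

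In 2 of the 38 vesicle and exocytosis genes, the active zone scaffolds ERC2 and RIMS1, all 4 HD* animals lay below the controls, and in 0 all lay above. Over all 9197 tested genes the shares were 2.03% below and 1.1% above, so a count of 2 is not a result about the list. ERC2 was at 18.2, 19.7 and 19.0 TPM in controls and at 13.4, 14.1, 15.9 and 17.4 TPM in HD* animals (log2 difference −0.31, SE 0.14). RIMS1 was at 24.03, 37.2 and 22.8 TPM in controls and at 17.5, 22.0, 22.4 and 20.5 TPM in HD* animals, and its difference of −0.40 was −0.18 without control 2. Neither reached an unadjusted p of 0.05. SNAP25, the abundant SNARE protein of synaptic vesicle fusion, was at 1990, 1413 and 1914 TPM in controls and at 960, 1885, 1475 and 1116 TPM in HD* animals, lowest in both VHD animals. GRM5, the metabotropic glutamate receptor 5, was at 101, 46.9 and 87.8 TPM in controls and at 37.1, 77.8, 64.7 and 36.2 TPM in HD* animals, in the same pattern as the projection neuron markers. Its log2 difference of −0.54 ranged from −0.87 without control 2 to −0.33 without control 1. KCND2, the Kv4.2 potassium channel, was at 40.2, 17.5 and 34.9 TPM in controls and at 13.4, 34.0, 23.3 and 19.9 TPM in HD* animals, with a log2 difference of −0.42 that ranged from −0.78 without control 2 to −0.20 without control 1.

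Cholesterol synthesis was the list with the most genes lower at an unadjusted p of 0.05. It had 20 of 27 genes below 0, or 18 with TMM rescaling, beside 62.5% of all tested genes, and a median of −0.11. HMGCS1, CYP51A1 and MSMO1 reached that level, 3 of 27 beside 1.08% of all tested genes. With TMM rescaling only HMGCS1 of these 3 did, and 0 of the 3 when the spread was taken from all 24 animals. HMGCS1, which makes the HMG-CoA used for sterols, was at 104, 74.2 and 87.3 TPM in controls and at 44.0, 73.6, 62.4 and 47.9 TPM in HD* animals, a log2 difference of −0.64 (SE 0.20), with all HD* animals below the controls. CYP51A1, a lanosterol demethylase, was at 85.5, 63.6 and 73.2 TPM in controls and at 49.9, 65.5, 59.6 and 43.7 TPM in HD* animals (−0.44). MSMO1, the methylsterol monooxygenase of the next steps, was at 167, 124 and 138 TPM in controls and at 86.7, 136, 106 and 75.1 TPM in HD* animals (−0.52). Levels of all 3 were lowest in the VHD animals. Without control 2 the median was −0.20, and −0.19 with VHD 4 left out as well. Without control 2 alone, 8 of the 27 genes were lower at an unadjusted p of 0.05, beside 407 of 9197 over all genes. In cohort 7a the list had a median of 0.002, and HMGCS1 a difference of −0.01.

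Genes of stress and of neuronal activity were mixed. Of the immediate early genes 13 of 18 were below 0, or 12 with TMM rescaling, beside 62.5% of all tested genes, with a median of −0.27. KLF2, a Krüppel-like transcription factor also found in endothelium, was at 15.8, 10.3 and 19.0 TPM in controls and at 9.18, 11.4, 10.8 and 6.90 TPM in HD* animals, a log2 difference of −0.58 (SE 0.25). JUNB was at 83.4, 52.4 and 90.7 TPM in controls and at 74.1, 93.3, 70.9 and 43.7 TPM in HD* animals, with overlap. Glucocorticoid receptor and target genes had 9 of 17 above 0, DDIT4 and GLUL among them. Heat shock proteins and chaperones had 24 of 32 below 0 and endoplasmic reticulum stress genes 19 of 22, with medians of −0.09 and −0.12 (the latter −0.23 without control 2), and none reached an unadjusted p of 0.05. With TMM rescaling 15 heat shock genes lay above 0 and 17 below, with a median of −0.03. The endoplasmic reticulum stress genes then had 5 above and 17 below, with a median of −0.07.

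Enzymes of ethanol, acetaldehyde and acetate metabolism had 7 of 9 tested genes above 0, with a median of 0.18 in cohort 5 and −0.28 in cohort 7a. ALDH7A1, an aldehyde dehydrogenase of lysine breakdown, was at 16.4, 20.7 and 16.5 TPM in controls and at 19.5, 28.0, 21.7 and 28.0 TPM in HD* animals, a log2 difference of 0.42 (SE 0.17). ALDH2, the mitochondrial enzyme that clears acetaldehyde, was at 371, 410 and 315 TPM in controls and at 551, 378, 481 and 414 TPM in HD* animals, a difference of 0.31 (SE 0.17). HD 2 lay below control 2 in ALDH2, and VHD 1 below control 2 in ALDH7A1.

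**Figure D5:**
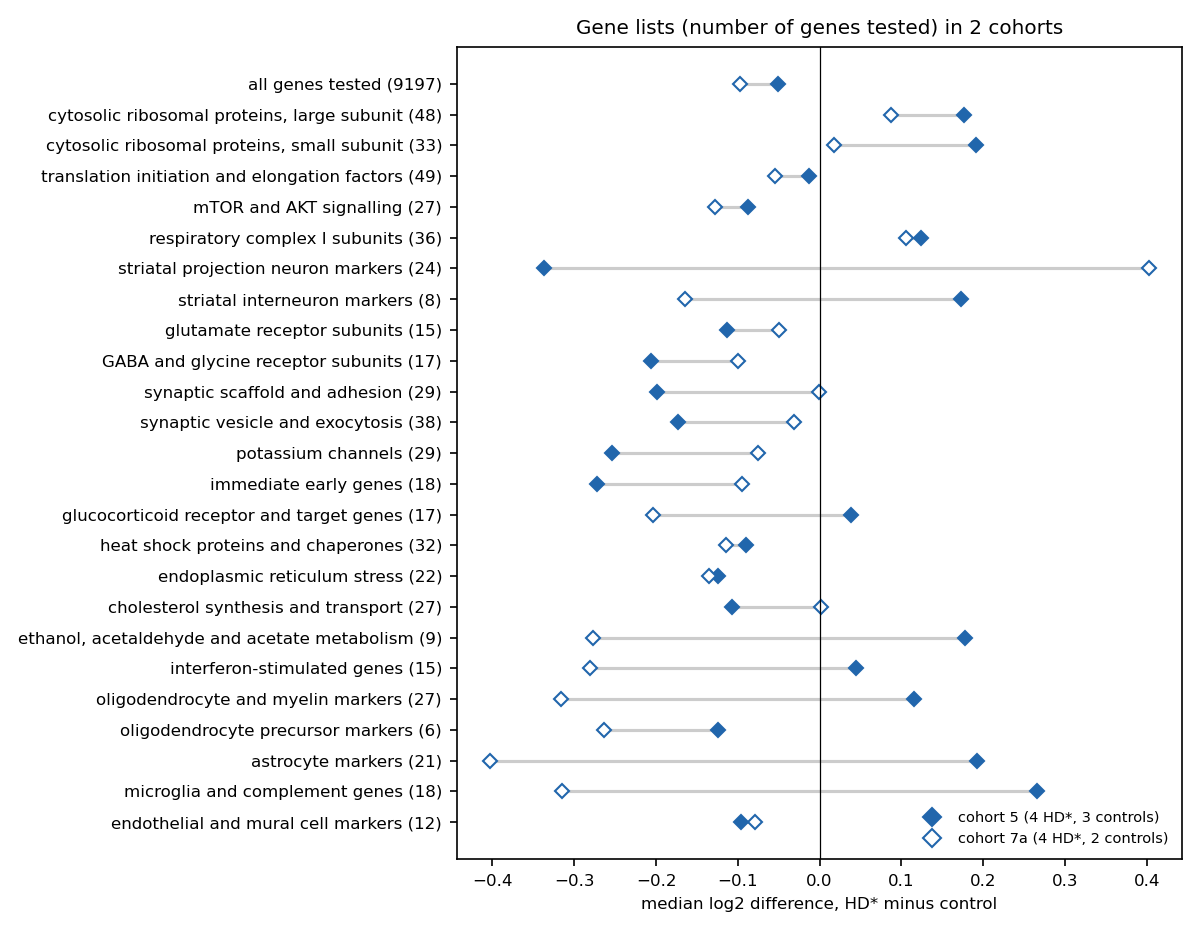
Median log2 difference (HD* minus control) of each gene list with at least 5 tested genes, with the number tested in brackets, in cohort 5 (filled) and cohort 7a (open). The projection neuron list lies at −0.34 in cohort 5 and 0.40 in cohort 7a, the astrocyte list at 0.19 and −0.40, and all genes at −0.05 and −0.10.

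Interferon-stimulated genes separated a single HD* animal rather than the group. Of 15 tested genes 9 were above 0, with a median of 0.04 and 0 at an unadjusted p of 0.05. The score was 0.95 in VHD 4, between −0.37 and −0.16 in the other 3 HD* animals, and −0.13, 0.23 and −0.21 in controls 1, 2 and 3. MX1, an antiviral GTPase, was at 74.1 TPM in VHD 4, at 6.57 to 12.6 TPM in the other HD* animals and at 9.76 to 18.4 TPM in controls. ISG15, a ubiquitin-like interferon product, was at 68.5 TPM in VHD 4, at 4.25 to 7.53 TPM in the other HD* animals and at 4.91 to 14.4 TPM in controls. Without VHD 4 the log2 differences turned from 0.18 to −0.53 for MX1 and from 0.39 to −0.47 for ISG15.

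IFIT1B, a gene of the interferon-induced IFIT family that was not on that list, was the gene that passed when control 2 was left out. It was at 0.032, 23.98 and 0.051 TPM in controls 1, 2 and 3, and at 13.3, 29.7, 43.1 and 23.0 TPM in VHD 1, HD 2, HD 3 and VHD 4. Control 2 thus lay within the HD* range, while the other controls were near 0. The log2 difference was 3.12 (SE 1.03, adjusted p = 0.998), and 4.65 without control 2 (adjusted p = 0.0227, limma) or 4.69 without both control 2 and VHD 4 (adjusted p = 0.0476, limma). Over the 24 animals it was under 1 TPM in 6, namely 3 of 8 controls, 3 of 8 LD* animals (low and binge drinkers) and 0 of 8 HD* animals, and at 8.87 to 43.9 TPM in the rest. In cohort 7a the HD* animals were at 8.87 to 15.8 TPM, below both controls at 32.2 and 43.9 TPM, a log2 difference of −1.47 (SE 0.31). Reads of IFIT1B could come in part from its near relative IFIT1, and an effect of such sharing was not tested.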

How the data were processed

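The authors sequenced polyA-selected NAcc core libraries, aligned reads to the MacaM assembly with STAR 2.5.2b, counted genes with HTSeq 0.6.1p1 and deposited TPM values, although the table is named for normalized counts. The gene lengths behind TPM are not given in the sources used here, and whether libraries were stranded and paired is described in conflicting ways. Columns summed to 999999 to 1000000 over 17208 symbols, so the depth of each animal is not known from these values and no counting error is given. Groups came from the labels, and 0 columns were unmapped.

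Values were log2(TPM + 1), and genes averaging 10 TPM or more in the 24 animals entered limma 3.58.1 under R 4.3.3 (empirical Bayes with trend, Benjamini-Hochberg), in the 7 animals of cohort 5, the 6 of cohort 7a, and both with an interaction. Fits were tested on simulated data. Principal components, scores and plots used Python 3.11.15, numpy 2.4.6, pandas 2.3.3, scipy 1.17.1 and matplotlib 3.10.9. Named genes are the 10 with the smallest p in each direction, the smallest p and highest mean of each of 27 lists, and 13 genes of striatal identity, glia and synapses. IFIT1B, ISG15, MX1, CYP51A1, MSMO1, GJB6 and RIMS1 were named after their values were seen, and a few genes are not reported here. The comparison and the lists were chosen with earlier results of these data known. Lists of 2 ependymal and choroid plexus markers tested (2 below 0), 2 cortical and other excitatory neuron markers tested (2 below 0) and 1 blood cell gene tested were too short for a median. Alternatives were pseudocounts of 0.1 and 8, other filters, TMM, array weights, a spread from 24 animals or without a trend, an oligodendrocyte covariate and leaving out animals.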

Additional observations from a re-analysis of the deposited data

Results flagged for a closer look

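In 113 sets of 4 HD* values from cohort 5, for 86 genes and 27 list scores, 8 had 1 animal far from the other 3 by Dixon's criterion, which flags about 1 set in 20 by chance. VHD 4 was the far animal in 7 of these 8. The sets are not independent, since genes also enter the list scores, as IFI6 and ISG15 enter the interferon score. The count is therefore a description and not a result about VHD 4. VHD 4 had the highest IFI6, an interferon-induced gene, at 918 TPM against 341 to 404 TPM in the other HD* animals. MX1 was at 74.1 TPM against 6.57 to 12.6 TPM, and ISG15 at 68.5 TPM against 4.25 to 7.53 TPM. Both were named after their values were seen, so their flags lend no support. The interferon score was 0.95 against −0.37 to −0.16. C1QB was at 175 TPM against 108 to 114 TPM. The score of ethanol, acetaldehyde and acetate metabolism was 0.39 against −0.09 to −0.05. JAKMIP1, a gene of a GABA-B receptor and microtubule binding protein, was lowest in VHD 4, at 110 TPM against 179 to 185 TPM. SLC17A7 was highest in HD 3, at 84.9 TPM against 1.14 to 10.6 TPM in the other HD* animals, and below the 348 TPM of control 2.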

How the results depend on the processing

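The count of genes at an adjusted p of 0.05 was 0 in cohort 5, in cohort 7a and for their difference under every alternative run, except that leaving out animals gave 0 to 1 in cohort 5 and 0 to 1 for the difference. The 1 gene was IFIT1B, without control 2, and in cohort 5 again without control 2 and VHD 4, a setting added after the data were seen (1 gene). The 146 genes at an unadjusted p of 0.05 became 465 with no filter, 256 at a mean of 1 TPM, 15 at 100 TPM, 32 with all 24 animals in the model, 804 with array weights and 528 without control 2 and VHD 4, and ranged from 70 (without control 1) to 581 (without control 2) as animals were left out, with 76 without control 3 and 348 without HD 2. The 288 genes without overlap became 616, 490 and 57 under the 3 filters, 455 to 2403 as animals were left out, and 3053 without control 2 and VHD 4, and fewer animals make separation easier by construction. The sign of the first component and of the median over all genes did not change as animals were left out. Under TMM the median over all genes was 0.004.

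Of 1497 values of 86 named genes under alternatives, 40 values of 16 genes reversed in sign, and 0 of the 20 leading genes were among them. The leading genes were picked by p in these same animals, so their stable sign was largely fixed by that choice. HSPA8 went to 0.056 under TMM, and MX1 to −0.00086 with the oligodendrocyte covariate. With array weights SLC2A1 went to −0.049, NRN1 to 0.43, SLC17A7 to 1.75, JAKMIP1 to −0.047 and KIRREL3 to −0.030. Leaving out each animal in turn, or both control 2 and VHD 4, gave ranges of −0.63 to 0.19 for CD3E, −0.75 to 0.20 for DRD2, −0.42 to 0.030 for GRIN1, −0.31 to 0.024 for GRM7, −0.14 to 0.011 for GSK3A, −0.074 to 0.11 for HSPA8, −0.0058 to 0.47 for IFI6, −0.47 to 0.78 for ISG15, −0.22 to 0.21 for JAKMIP1, −0.35 to 0.10 for JUNB, −0.63 to 0.11 for KCNJ4, −0.12 to 0.19 for KIRREL3, −0.53 to 0.57 for MX1, −1.26 to 0.61 for NRN1, −1.77 to 2.65 for SLC17A7 and −0.073 to 0.26 for SLC2A1. Without control 2 and VHD 4, SLC2A1 went to −0.069, NRN1 to 0.57, SLC17A7 to 2.65, JAKMIP1 to −0.037, KIRREL3 to −0.097, ISG15 to −0.083 and MX1 to −0.34. The cause of these changes was not tested. A paired analysis did not apply, since the drinkers and controls were different, unrelated animals. With 4 animals against 3, each measured once, p-values reflect the spread between these animals.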
